A study of Mus musculus with 5 samples.

Results

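The luminal epithelium of the mouse mammary gland is sorted into subsets by a small set of surface proteins. The 10 genes described here encode surface proteins, some of them used in this way. They are *Ly6d*, *Ly6a*, *Ly6e*, *Ly6c1*, *Prom1*, *Kit*, *Cd14*, *Plet1*, *Cd24a* and *Epcam*. The genes were picked out of the count matrices by symbol, as 10 of 27998 genes, and the list was drawn up with earlier results of these data known. All 10 were detected, and each gene identifier in the files was the same as in the GENCODE M21 annotation.

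Single-cell RNA was measured in the mammary glands of female BALB/cj mice after ovariectomy, in 5 libraries, 1 per group, at 30 weeks of age. Treatment started 20 weeks after ovariectomy and lasted for 1 week. OVX received the DMSO vehicle by daily intraperitoneal injection, OVX_E2 received estradiol (E2) at 1 µg per animal, and OVX_E2_P4 received E2 and progesterone (P4) at 0.1 mg per animal. OVX_E2_PBDE and OVX_E2_P4_PBDE received the same hormones and food with polybrominated diphenyl ethers (PBDEs), flame retardants given as BDE-47, BDE-100 and BDE-153 at 7.1, 0.4 and 0.9 mg per kg, while the other groups ate matched food with DMSO. All mice, those of OVX included, had lost their ovaries, so no library represents a gland with its own ovarian hormones. The number of mice pooled into a library is not given in the sources used here, and a difference between treatments cannot be told apart from a difference between libraries.

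In the mammary gland, a luminal layer lines the ducts and alveoli and a basal, contractile layer surrounds it. Luminal cells fall into a hormone-sensing lineage that carries the estrogen and progesterone receptors (L-Hor) and an alveolar lineage that makes milk proteins (L-Alv). Cell sorting separates them by Sca-1, the product of *Ly6a*, and by CD133, the product of *Prom1*, which mark hormone-sensing cells, while KIT and CD14 mark the receptor-negative, progenitor-rich fraction. LY6 proteins are small surface proteins held by a lipid (GPI) anchor, and Sca-1 and LY6C are also well known on endothelial, hematopoietic and mesenchymal cells. EPCAM is an adhesion protein of all epithelia, and CD24 is used to gate epithelium away from stroma.

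The 4 Ly6 genes lie together on chromosome 15 of the mm10 (GRCm38) assembly, within 287 kb. *Ly6d* occupies chr15:74762056-74763620 on the minus strand, *Ly6e* chr15:74955051-74959905 on the plus strand, *Ly6a* chr15:74994877-74998031 on the minus strand and *Ly6c1* chr15:75044018-75048830 on the minus strand. *Prom1* lies at chr5:43993620-44102032 on the minus strand, *Kit* at chr5:75574916-75656722 on the plus strand, *Plet1* at chr9:50494525-50505482 on the plus strand, *Cd24a* at chr10:43578284-43584265 on the plus strand and *Epcam* at chr17:87635979-87651129 on the plus strand. Among the annotated genes, *Prom1* overlaps Gm42716 on its own strand, so its count could hold reads of that transcript. On the opposite strand, *Prom1* overlaps Gm16401 and *Plet1* overlaps Plet1os. Of the distinct 50-base stretches in the last 500 bases of the annotated *Ly6c1* transcripts, 19.9% also occur in *Ly6c2* transcripts, and 4.80% of those of *Ly6a* occur in *Ly6c1*. A read made only of such a stretch cannot be placed on a gene, which makes the level of *Ly6c1* the least certain of the 4. The corresponding share was 0 for *Ly6d* and for *Ly6e*, against every other annotated gene.

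The RefSeq promoter windows of GRCm38.p6 held entries for 5 of the 10 genes (*Ly6c1*, *Prom1*, *Kit*, *Plet1* and *Epcam*). Those of *Kit* and *Plet1* are shown because these genes were high together in the alveolar lineage, and that of *Ly6c1* because it was low there and high in stroma. Each is printed from its upstream end towards the start of transcription, without bases of the annotated gene body. Capitals mark AGGAAG, a motif of ETS family factors, GGTCA, a nuclear receptor half-site, and TATAAA, each searched on both strands.
Kit: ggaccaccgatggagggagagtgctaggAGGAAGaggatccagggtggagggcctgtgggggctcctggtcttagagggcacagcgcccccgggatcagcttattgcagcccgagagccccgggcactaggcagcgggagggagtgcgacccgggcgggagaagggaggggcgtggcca
Plet1: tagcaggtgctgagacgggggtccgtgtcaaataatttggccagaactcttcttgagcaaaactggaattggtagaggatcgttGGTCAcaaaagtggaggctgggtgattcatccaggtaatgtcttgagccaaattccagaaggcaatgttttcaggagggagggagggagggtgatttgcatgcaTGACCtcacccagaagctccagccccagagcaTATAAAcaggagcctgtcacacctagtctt
Ly6c1: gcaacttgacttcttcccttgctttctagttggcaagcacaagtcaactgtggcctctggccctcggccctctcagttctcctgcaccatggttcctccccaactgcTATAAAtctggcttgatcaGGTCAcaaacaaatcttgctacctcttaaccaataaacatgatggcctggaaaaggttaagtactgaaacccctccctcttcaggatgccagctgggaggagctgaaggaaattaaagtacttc
The window of *Kit* (chr5:75574737-75574915, plus strand) held AGGAAG, 222 bases before the RefSeq start. That of *Plet1* (chr9:50494275-50494524, plus strand) held GGTCA 166 and 62 bases before the start and TATAAA 30 bases before it, and that of *Ly6c1* (chr15:75048838-75049087, minus strand) held GGTCA at 124 and TATAAA at 143 bases. A second *Ly6c1* window, at another RefSeq start and not printed, held AGGAAG 126, 38 and 34 bases before that start. Among all 32851 windows of 250 bases, 29.5% held AGGAAG, 35.2% held GGTCA and 12.4% held TATAAA. The matches are a description of these letters only.

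Total UMIs, the counted transcripts, ranged from 19982067 to 42012988 per library over 2233 to 3536 barcodes, and from 3 to 15 barcodes were shared by any pair of libraries. Cells were clustered in each library without the 10 genes, and clusters were named by other markers. This gave 92 to 760 L-Hor-like, 124 to 563 L-Alv-like, 60 to 147 basal-like, 887 to 2564 fibroblast-like and 22 to 61 endothelial-like cells per library, but no L-Alv-like cluster in OVX. That absence depended on the settings. OVX, clustered at a resolution of 0.3 against 0.5 in the others, held 32 L-Alv-like cells at a resolution of 1 and 30 with a 5% mitochondrial threshold. With Scrublet calls in place of the mixed clusters it held 168. These were what was left of its luminal cluster of 195 barcodes with markers of both lineages, renamed whole. The 6 L-Hor markers summed to 3743 to 5527 CPM (UMIs of a gene per 1000000 UMIs of the cells) in L-Hor-like and 206 to 361 in L-Alv-like cells, and the 6 L-Alv markers to 7357 to 8975 in L-Alv-like and 87.5 to 259.9 in L-Hor-like cells. Luminal clusters with markers of both lineages, at median depths of 15330 to 29463 UMIs, were kept apart as mixed luminal. With Scrublet calls in their place, each was instead named whole by its higher lineage score, and the lineage so chosen differed between libraries. The basal-like cells of OVX_E2_P4_PBDE stood apart, with the markers of luminal cells of either lineage at 3312 CPM against 889.9 to 1391 in the others. Levels below are in CPM, with libraries in the order OVX, OVX_E2, OVX_E2_PBDE, OVX_E2_P4 and OVX_E2_P4_PBDE. Cells in droplets share free RNA, so low levels in cells that should lack a gene give its background. In sums over cells, fewer expressing cells and less RNA per cell cannot be told apart.

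**Figure D1:**
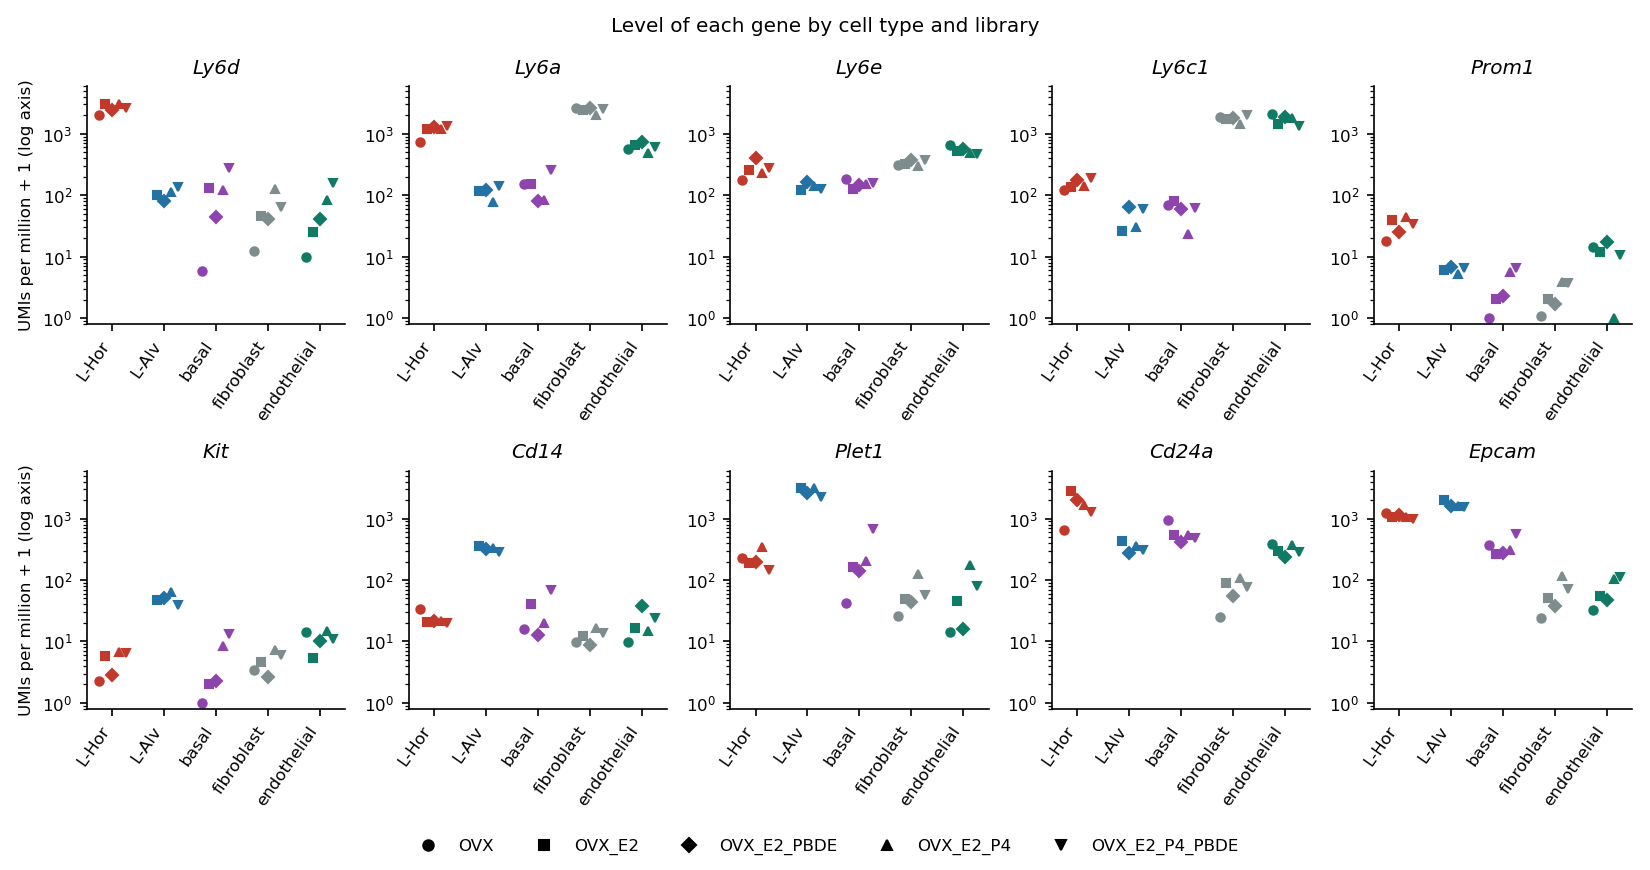
Level of each gene (CPM plus 1, log axis) in the cells of each type, with a point per library (shape) and a colour per cell type. *Ly6d* stands alone in L-Hor-like cells and *Kit*, *Cd14* and *Plet1* in L-Alv-like cells, while *Ly6a* and *Ly6c1* are highest in fibroblast-like or endothelial-like cells.

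The first question was which of the markers separate the luminal lineages. In a fit over the sums of each library and cell type, with the library as a term, 6 of the 10 genes were higher in L-Hor-like than in L-Alv-like cells (*Ly6d*, *Ly6a*, *Ly6e*, *Ly6c1*, *Prom1* and *Cd24a*) and 4 were lower (*Kit*, *Cd14*, *Plet1* and *Epcam*), by edgeR's quasi-likelihood test at an adjusted p of 0.05. Of all 11229 genes tested, 27.4% were called higher and 27.0% lower in this contrast. The median log2 fold was 1.32 over the 10 genes and 0.0052 over all genes. OVX had no L-Alv-like sum and entered with its other types. The cell types were defined by other genes of the same cells, so the test concerns the level of a gene between these clusters.

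*Ly6d* gave the widest separation. Its level in L-Hor-like cells was 1999 (OVX), 3042 (OVX_E2), 2444 (OVX_E2_PBDE), 3102 (OVX_E2_P4) and 2589.8 (OVX_E2_P4_PBDE), and in L-Alv-like cells it was 99.3 (OVX_E2), 78.8 (OVX_E2_PBDE), 114 (OVX_E2_P4) and 133 (OVX_E2_P4_PBDE). Every L-Hor-like sum was above every other sum of the 5 types. The log2 fold of L-Hor-like over L-Alv-like cells was 4.96 ± 0.36 (SE, adjusted p = 2.9e-12, edgeR). The levels in basal-like, L-Alv-like, endothelial-like and fibroblast-like cells overlapped between libraries, at means of 115 ± 105 (SD, n = 5), 106 ± 22.8 (SD, n = 4), 63.1 ± 60.4 (SD, n = 5) and 57.0 ± 42.4 (SD, n = 5). With each cell thinned to 3000 UMIs, 88.0% to 96.4% of L-Hor-like cells held a *Ly6d* UMI, against 11.8% to 24.2% of L-Alv-like and 3.55% to 23.3% of fibroblast-like cells. As counted, the shares were 90.2% to 99.4%, 40.2% to 56.0% and 6.01% to 39.6%, at median depths of 5533 to 10452, 7190.5 to 11570.5 and 4252 to 7032 UMIs. The thinned range in L-Alv-like cells overlapped that in fibroblast-like cells, which should lack the gene.

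*Ly6a*, which encodes Sca-1, was 745 (OVX), 1196 (OVX_E2), 1292 (OVX_E2_PBDE), 1217 (OVX_E2_P4) and 1355 (OVX_E2_P4_PBDE) in L-Hor-like cells and 118 (OVX_E2), 119 (OVX_E2_PBDE), 77.7 (OVX_E2_P4) and 142 (OVX_E2_P4_PBDE) in L-Alv-like cells. The lineages did not overlap, and the log2 fold was 3.34 ± 0.22 (adjusted p = 4.0e-13, edgeR). A *Ly6a* UMI was seen in 80.4% to 91.4% (92.4% to 98.0% as counted) of thinned L-Hor-like, 18.5% to 31.5% (46.9% to 61.3% as counted) of L-Alv-like and 83.3% to 97.9% (87.9% to 98.8% as counted) of fibroblast-like cells, so detection alone did not set L-Hor-like cells apart from fibroblast-like cells. *Prom1*, which encodes the membrane glycoprotein CD133, was a low gene with the same direction, at 16.8 (OVX), 38.8 (OVX_E2), 24.6 (OVX_E2_PBDE), 42.9 (OVX_E2_P4) and 33.1 (OVX_E2_P4_PBDE) in L-Hor-like cells and 4.16 to 5.88 in L-Alv-like cells, where 6 to 26 UMIs were counted per library. Its log2 fold was 2.81 ± 0.27 (adjusted p = 5.4e-10, edgeR). It was seen in 6.10% to 11.6% of thinned L-Hor-like cells and 0.694% to 1.61% of L-Alv-like cells, or 14.1% to 30.0% and 4.03% to 6.25% as counted. A *Prom1* UMI was thus missing in most L-Hor-like cells at this depth.

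*Cd24a*, which encodes the heat stable antigen CD24, differed by 2.27 ± 0.32 on the log2 scale (adjusted p = 7.6e-07, edgeR), with 648 to 2823 CPM in L-Hor-like and 269.7 to 426 in L-Alv-like cells. It was detected in 82.6% to 96.8% (93.5% to 100% as counted) of thinned L-Hor-like, 49.5% to 66.7% (80.6% to 91.7% as counted) of L-Alv-like and 5.50% to 22.1% (9.91% to 42.05% as counted) of fibroblast-like cells. The other Ly6 genes differed less. *Ly6c1* was 123 to 191 in L-Hor-like and 25.3 to 64.0 in L-Alv-like cells, a log2 fold of 1.75 ± 0.22 (adjusted p = 1.1e-07, edgeR). *Ly6e*, an interferon-inducible family member, was 179 to 399 and 122 to 161 in the same order, without overlap, a log2 fold of 0.89 ± 0.17 (adjusted p = 4.5e-05, edgeR). Fibroblast markers summed to 979 to 2569.7 CPM in L-Hor-like and 743 to 1045 in L-Alv-like cells, with all 6 detected in each library, and their part in the difference of *Ly6c1* was not tested.

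The alveolar markers formed the opposite group. *Plet1*, which encodes a GPI-anchored surface protein first described in placenta, was 3191 (OVX_E2), 2648 (OVX_E2_PBDE), 3194 (OVX_E2_P4) and 2261 (OVX_E2_P4_PBDE) in L-Alv-like cells and 226 (OVX), 188 (OVX_E2), 199 (OVX_E2_PBDE), 344 (OVX_E2_P4) and 145 (OVX_E2_P4_PBDE) in L-Hor-like cells. The log2 fold of L-Hor-like over L-Alv-like cells was -3.62 ± 0.37 (adjusted p = 2.0e-09, edgeR). Nearly all thinned L-Alv-like cells held a *Plet1* UMI, at 95.6% to 97.9% (99.2% to 100% as counted), as did 30.3% to 56.1% (50.8% to 84.3% as counted) of L-Hor-like and 7.64% to 29.4% (11.9% to 48.6% as counted) of fibroblast-like cells. *Cd14*, a co-receptor for bacterial lipopolysaccharide, was 357 (OVX_E2), 313 (OVX_E2_PBDE), 337 (OVX_E2_P4) and 284 (OVX_E2_P4_PBDE) in L-Alv-like cells and 18.9 to 32.3 in L-Hor-like cells, a log2 fold of -3.99 ± 0.22 (adjusted p = 7.2e-15, edgeR). It was detected in 49.5% to 56.9% (71.0% to 85.4% as counted) of thinned L-Alv-like, 4.62% to 12.0% (9.92% to 23.9% as counted) of L-Hor-like and 1.88% to 4.51% (4.41% to 8.39% as counted) of fibroblast-like cells.

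*Kit*, the receptor tyrosine kinase for stem cell factor, was 46.6 (OVX_E2), 50.1 (OVX_E2_PBDE), 63.4 (OVX_E2_P4) and 38.7 (OVX_E2_P4_PBDE) in L-Alv-like cells and 1.29 (OVX), 4.80 (OVX_E2), 1.83 (OVX_E2_PBDE), 5.66 (OVX_E2_P4) and 5.56 (OVX_E2_P4_PBDE) in L-Hor-like cells. The lineages did not overlap, and the log2 fold was -3.68 ± 0.24 (adjusted p = 2.5e-13, edgeR). The L-Hor-like level was close to that of fibroblast-like cells (1.62 to 6.34). A *Kit* UMI was seen in 10.5% to 16.3% (26.6% to 45.1% as counted) of thinned L-Alv-like and 0.624% to 2.10% (1.20% to 3.78% as counted) of fibroblast-like cells. Among thinned L-Alv-like cells with a *Kit* UMI, *Cd14* was detected in 69.6% in OVX_E2, 61.3% in OVX_E2_PBDE, 46 of 92 cells in OVX_E2_P4 and 61.5% in OVX_E2_P4_PBDE, with 13 to 92 such cells per library. Among those without one the shares were 54.5%, 47.4%, 51.0% and 50.5%, so *Cd14* was not limited to cells with *Kit*.

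*Epcam* was present in both lineages, at 1239.6 (OVX), 1065 (OVX_E2), 1143 (OVX_E2_PBDE), 1077 (OVX_E2_P4) and 982 (OVX_E2_P4_PBDE) in L-Hor-like and 2021 (OVX_E2), 1582 (OVX_E2_PBDE), 1627 (OVX_E2_P4) and 1536 (OVX_E2_P4_PBDE) in L-Alv-like cells. The ranges did not overlap, and the log2 fold was -0.63 ± 0.23 (adjusted p = 0.023, edgeR). This call was lost without OVX_E2 (log2 fold -0.48, adjusted p = 0.17), without OVX_E2_PBDE (-0.65, adjusted p = 0.061) and in DESeq2 (-0.64, adjusted p = 0.064). The other 9 genes kept their call in this contrast under all 12 alternatives. An *Epcam* UMI was found in 91.3% to 94.4% (98.9% to 100% as counted) of thinned L-Hor-like, 95.2% to 97.3% (100% to 100% as counted) of L-Alv-like, 52.4% to 61.7% (76.7% to 88.7% as counted) of basal-like and 7.18% to 25.5% (11.7% to 41.6% as counted) of fibroblast-like cells.

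**Figure D2:**
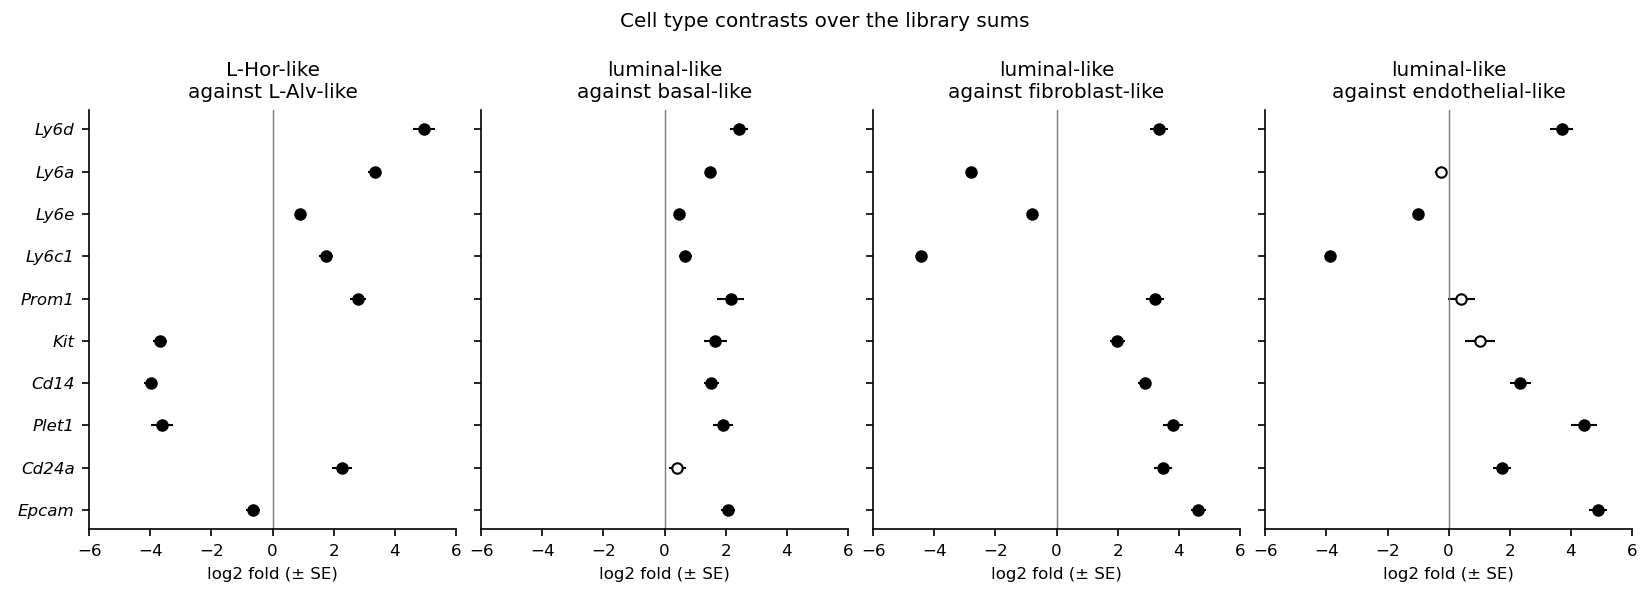
Log2 fold (± SE) of each gene in the cell type contrasts, from the fit over library sums, with filled points for genes past an adjusted p of 0.05 and open points for the others. *Ly6d*, *Ly6a*, *Prom1* and *Cd24a* lie on the right and *Kit*, *Cd14* and *Plet1* on the left of the first panel, and *Ly6a*, *Ly6e* and *Ly6c1* turn to the left against fibroblast-like cells.

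**Figure D3:**
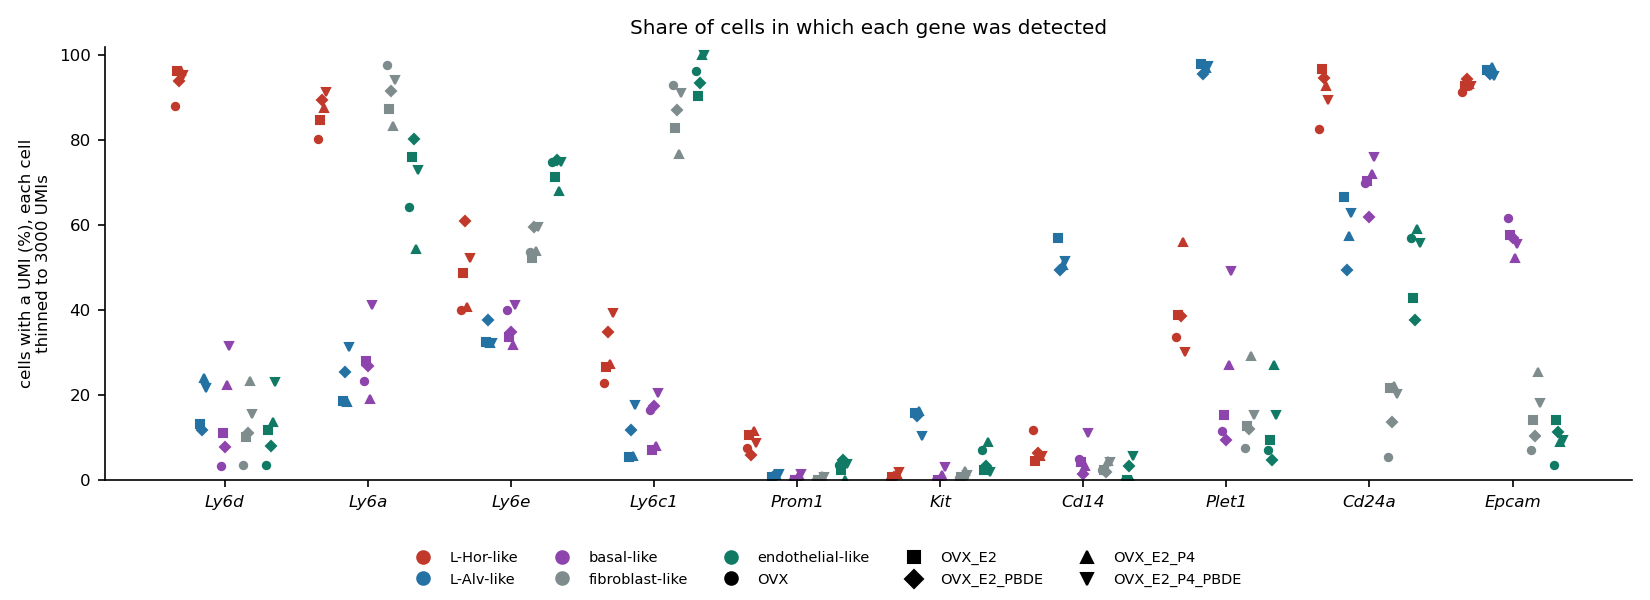
Share of cells with at least 1 UMI of each gene after every cell was thinned to 3000 UMIs, with a point per library (shape) and a colour per cell type. *Ly6d* reaches 88.0% or more of L-Hor-like cells and *Plet1* 95.6% or more of L-Alv-like cells, while *Prom1* and *Kit* stay under 20% in the 5 types plotted.

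The next question was how far the markers separate luminal from other cells. For this the mean of the L-Hor-like and L-Alv-like coefficients on the log2 scale was set against each other type. Against basal-like cells, 9 of the 10 genes were higher in luminal-like cells, where 23.7% of all genes were. None was lower by edgeR at an adjusted p of 0.05, nor at an unadjusted p of 0.05 (0 genes) or by DESeq2 (0 genes), where 24.3% of all genes were lower by edgeR. The luminal mean can be carried by a single lineage. In L-Hor-like cells the mean levels of *Kit* (3.83), *Cd14* (22.5) and *Plet1* (220) were not above basal-like cells (4.37, 30.7 and 245). In L-Alv-like cells the same held for *Ly6d* (106 against 115), *Ly6a* (114 against 143), *Ly6c1* (44.4 against 58.1) and *Ly6e* (137 against 152). The library ranges overlapped in each case. They also overlapped for *Prom1*, at means of 5.13 in L-Alv-like and 2.51 in basal-like cells. *Prom1* rested on 0 to 7 basal-like UMIs per library and *Kit* on 0 to 11. *Epcam* was 377 (OVX), 262 (OVX_E2), 269.9 (OVX_E2_PBDE), 310.3 (OVX_E2_P4) and 553 (OVX_E2_P4_PBDE) in basal-like cells, each below every luminal level, with a log2 fold of 2.07 ± 0.22 (adjusted p = 5.7e-09, edgeR). The folds of *Prom1*, *Plet1*, *Kit*, *Cd14* and *Ly6a* were all under that of *Ly6d*, 2.43, and that of *Kit*, 1.66, was 0.59 (adjusted p = 0.22) with a mitochondrial threshold of 5%. Without OVX_E2_P4_PBDE, whose basal-like cells stood apart, the folds were 2.32 for *Epcam*, 2.72 for *Plet1* and 2.88 for *Ly6d*, against 1.91 for *Plet1* with it, and the same 9 genes were called.

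The Ly6 genes with small folds over basal-like cells lost their call when some libraries were left out. *Ly6e* had a log2 fold of 0.47 (adjusted p = 0.011, edgeR), and 0.43 (adjusted p = 0.064) without OVX_E2 and 0.33 (adjusted p = 0.099) without OVX_E2_PBDE. *Ly6c1* had 0.68 (adjusted p = 0.0092, edgeR), and 0.49 (adjusted p = 0.073) without OVX_E2_P4 and 0.55 (adjusted p = 0.079) without OVX_E2_PBDE. *Cd24a* was the gene not called, at 954 (OVX), 536 (OVX_E2), 411 (OVX_E2_PBDE), 539 (OVX_E2_P4) and 482 (OVX_E2_P4_PBDE) in basal-like cells, with a log2 fold of 0.42 ± 0.27 (adjusted p = 0.21, edgeR). Without OVX it was 0.87 (adjusted p = 2.8e-06), a mean carried by the hormone-sensing lineage alone. The alveolar level of *Cd24a* was below the basal-like level in every library where both types were named. It was 426 (OVX_E2), 269.7 (OVX_E2_PBDE), 363 (OVX_E2_P4) and 310.5 (OVX_E2_P4_PBDE) in L-Alv-like cells. In OVX the basal-like level of *Cd24a* was above the L-Hor-like level, and in the libraries with E2 it was below it.

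Against fibroblast-like cells, 7 genes were higher in luminal-like cells and 3 were lower, where 35.8% and 35.7% of all genes were called. The 7 had log2 folds from 1.99 for *Kit* to 4.64 for *Epcam*. In L-Hor-like cells the mean level of *Kit* was 3.83, against 3.79 in fibroblast-like cells. In L-Alv-like cells that of *Ly6d* was 106 against 57.0. The library ranges overlapped for both. The 3 lower genes all belonged to the Ly6 family. *Ly6a* was 2653 (OVX), 2486 (OVX_E2), 2596 (OVX_E2_PBDE), 2001 (OVX_E2_P4) and 2555 (OVX_E2_P4_PBDE) in fibroblast-like cells, above every L-Hor-like level, with a log2 fold of -2.80 ± 0.16 (adjusted p = 3.3e-15, edgeR). *Ly6c1* was 1894 (OVX), 1737 (OVX_E2), 1796 (OVX_E2_PBDE), 1433 (OVX_E2_P4) and 1992 (OVX_E2_P4_PBDE) there, with -4.44 ± 0.17 (adjusted p = 1.9e-19, edgeR), and *Ly6e* was 294 to 371, with -0.79 ± 0.13 (adjusted p = 4.3e-06, edgeR). The L-Hor-like range of *Ly6e*, 179 to 399, overlapped that of fibroblast-like cells. *Ly6d* was the Ly6 gene of the 4 with the opposite sign, at 3.35 ± 0.29 (adjusted p = 2.6e-11, edgeR).

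Against endothelial-like cells, 5 genes were higher and 2 lower in luminal-like cells, where 25.3% and 26.5% of all genes were called. The 5 were *Ly6d* (3.69 on the log2 scale), *Cd14* (2.34), *Plet1* (4.43), *Cd24a* (1.74) and *Epcam* (4.88). In L-Hor-like cells the mean level of *Cd14* was 22.5, against 19.5 in endothelial-like cells, and that of *Plet1* was 220 against 64.4. In L-Alv-like cells that of *Cd24a* was 342 against 314 and that of *Ly6d* 106 against 63.1. The library ranges overlapped in each case. *Cd14* rested on 2 to 20 endothelial-like UMIs per library and *Plet1* on 3 to 25. *Ly6c1* was 2091 (OVX), 1448 (OVX_E2), 1874 (OVX_E2_PBDE), 1785 (OVX_E2_P4) and 1352 (OVX_E2_P4_PBDE) in endothelial-like cells, a range that overlapped that of fibroblast-like cells, with a log2 fold of -3.89 ± 0.17 (adjusted p = 2.0e-17, edgeR). *Ly6e* was highest of all 5 types there, at 468 to 658, with -0.99 ± 0.14 (adjusted p = 1.3e-06, edgeR). *Ly6a* was 481 to 737 in endothelial-like cells, between the L-Hor-like and the L-Alv-like levels, and the luminal mean did not pass the test (-0.26 ± 0.18, adjusted p = 0.22, edgeR). *Prom1* (0.42 ± 0.45, adjusted p = 0.46, edgeR) rested on 0 to 9 endothelial-like UMIs per library. *Kit* (1.03 ± 0.48, adjusted p = 0.075, edgeR) rested on 2 to 5, and was called without OVX (1.28, adjusted p = 0.042).

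Fibroblast-like cells were not uniform for the Ly6 genes. They formed 2 to 4 clusters per library, and the cluster with the highest level of *Pi16*, a gene of adventitial fibroblasts, was compared with that of the highest *Spon1*, a gene of extracellular matrix, a choice made after the clusters had been seen. *Ly6a* was 3122 (OVX), 3295 (OVX_E2), 2946 (OVX_E2_PBDE), 2860 (OVX_E2_P4) and 2969 (OVX_E2_P4_PBDE) in the former and 1007 (OVX), 326 (OVX_E2), 456 (OVX_E2_PBDE), 93.2 (OVX_E2_P4) and 1480 (OVX_E2_P4_PBDE) in the latter. *Ly6c1* was 2297 (OVX), 2304 (OVX_E2), 1980 (OVX_E2_PBDE), 2096 (OVX_E2_P4) and 2362 (OVX_E2_P4_PBDE) in the former and 664 (OVX), 193 (OVX_E2), 253 (OVX_E2_PBDE), 35.9 (OVX_E2_P4) and 1032 (OVX_E2_P4_PBDE) in the latter. In each library both genes were lower in the cluster with the highest *Spon1*, and the lowest levels, in OVX_E2_P4, were below those of L-Hor-like cells. Both genes were kept out of the clustering, and the comparison of clusters within a library is a description.

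**Figure D4:**
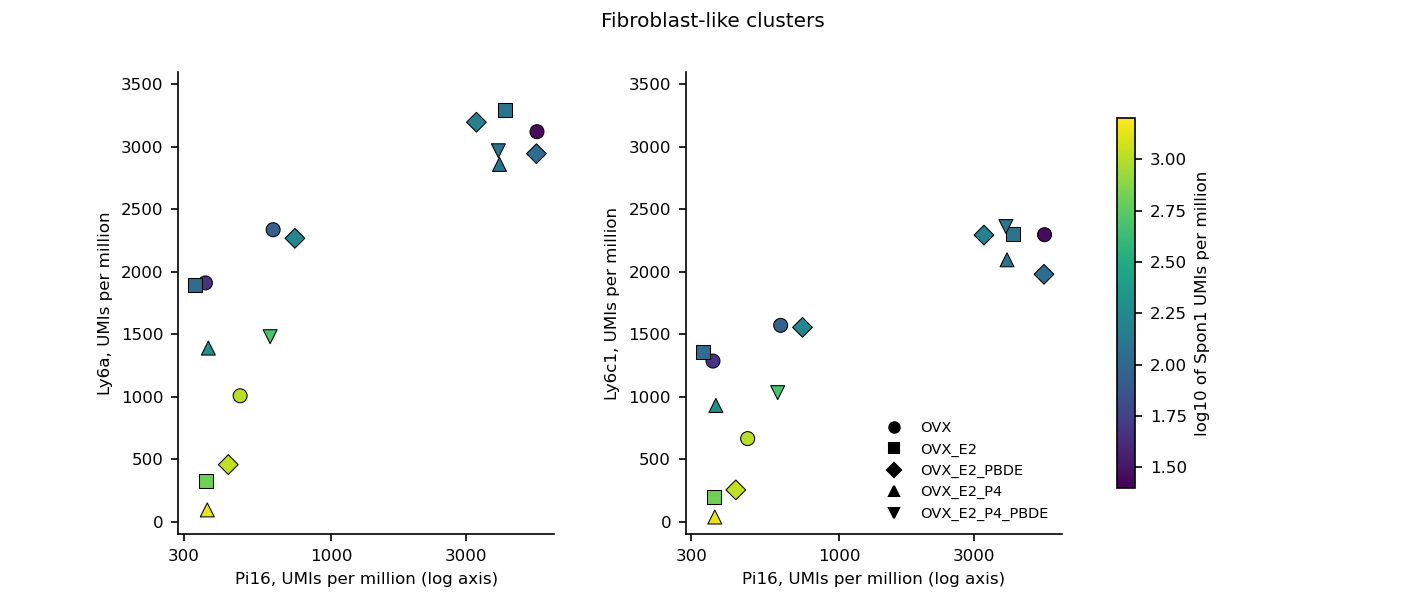
Level of *Ly6a* (left) and *Ly6c1* (right) in each of the 16 fibroblast-like clusters against the level of *Pi16* (log axis), in CPM, with a shape per library and the level of *Spon1* as colour. The 6 clusters with *Pi16* above 3000 have *Ly6a* at 2860 or more and *Ly6c1* at 1980 or more, and the lowest point is the cluster with the highest *Spon1*.

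For E2, OVX_E2 was compared with OVX in L-Hor-like cells. With 1 library per group there is no test of a difference between treatments, and the 95% intervals are exact and cover counting error only. *Cd24a* was 648 CPM in OVX and 2823 in OVX_E2, a ratio of 4.36 (95% interval 3.98 to 4.77). *Prom1* was 16.8 and 38.8, from 13 and 194 UMIs, a ratio of 2.30 (95% interval 1.32 to 4.41). Of the 9 genes that reached 50 UMIs over the pair of libraries, these 2 were past 2-fold, where 9.22% of all genes were. With Scrublet calls in place of the mixed clusters *Cd24a* was 2.96 and *Prom1* 1.75. The ratio was 1.61 (95% interval 1.47 to 1.75) for *Ly6a*, 1.52 (95% interval 1.44 to 1.60) for *Ly6d* and 1.44 (95% interval 1.21 to 1.73) for *Ly6e*, and 0.859 (95% interval 0.802 to 0.921) for *Epcam*, which was 1.01 when divided by the median ratio of all genes. The median log2 ratio of all genes counted was -0.24 in this comparison, and of the 9 genes 0.52. The OVX library held 92 L-Hor-like cells. The mixed luminal cells, at 195 cells in OVX, gave 3.53 (95% interval 3.35 to 3.72) for *Cd24a* and 2.42 (95% interval 1.71 to 3.51) for *Prom1*.

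In basal-like cells *Cd24a* had the opposite direction, from 954 in OVX to 536 in OVX_E2, a ratio of 0.562 (95% interval 0.492 to 0.643). In fibroblast-like cells it was 23.5 and 88.1, a low level in cells that should lack the gene. *Ly6d*, *Epcam* and *Plet1* were also higher in the fibroblast-like cells of OVX_E2 than of OVX, at ratios of 3.84, 2.10 and 1.95. In basal-like cells *Ly6d* had 2 UMIs in OVX and 124 in OVX_E2. With no L-Alv-like cluster in OVX at the main settings, L-Alv-like cells were not compared there.

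*Cd24a* was lower in each further treated library than in OVX_E2. Its L-Hor-like level was 648 (OVX), 2823 (OVX_E2), 2022 (OVX_E2_PBDE), 1639 (OVX_E2_P4) and 1276 (OVX_E2_P4_PBDE). The libraries did not overlap in their counting intervals, and OVX was the lowest. P4 gave a ratio of 0.581 (95% interval 0.567 to 0.595) without and 0.631 (95% interval 0.610 to 0.652) with PBDEs, and PBDEs gave 0.716 (95% interval 0.6998 to 0.733) without and 0.778 (95% interval 0.752 to 0.805) with P4. None of these was past 2-fold.

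For P4 in L-Hor-like cells, OVX_E2_P4 against OVX_E2, 0 of 10 genes were past 2-fold, where 1.70% of all genes were. With PBDEs in the food, OVX_E2_P4_PBDE against OVX_E2_PBDE, 0 of 9 were, where 1.85% of all genes were. *Ly6d* (1.02 and 1.06) and *Ly6a* (1.02 and 1.05) had ratios within 10% of 1 in these comparisons. *Ly6e* was lower in each, at 0.879 (95% interval 0.817 to 0.946) and 0.701 (95% interval 0.652 to 0.753), the former 1.10 with Scrublet calls in place of the mixed clusters. *Plet1* had opposite directions, at 1.83 (95% interval 1.70 to 1.98) without and 0.728 (95% interval 0.657 to 0.805) with PBDEs.

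Markers of the alveolar lineage were highest in the same L-Hor-like sum as *Plet1*, though not lowest in the same. The 6 L-Alv markers summed to 259.9 CPM in L-Hor-like cells in OVX_E2_P4 and to 87.5 to 160.4 in the others, lowest in OVX_E2, while *Plet1* was lowest in OVX_E2_P4_PBDE. *Plet1* was also highest in OVX_E2_P4 among fibroblast-like cells, at 24.5, 47.7, 43.1, 124 and 56.9 in the library order above. OVX_E2_P4 held 563 L-Alv-like cells and OVX_E2_P4_PBDE 124. Their part in the *Plet1* ratios of L-Hor-like cells was not tested. With Scrublet calls in place of the mixed clusters, the *Plet1* ratios for P4 turned to 0.453 without and 1.46 with PBDEs.

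For PBDEs in L-Hor-like cells, 0 of 9 genes were past 2-fold without P4, where 1.80% of all genes were, and 1 of 10, *Plet1* at 0.420 (95% interval 0.382 to 0.462), with P4, where 3.09% of all genes were. The latter turned to 1.51 with Scrublet calls in place of the mixed clusters. Below that fold, 6 of the genes had the same direction in both comparisons with intervals that left out 1. The share of all genes that did so was not counted, and at high counts small shifts leave out 1. *Ly6e*, *Ly6c1* and *Ly6a* were higher with PBDEs. The ratio of *Ly6e* was 1.55 (95% interval 1.45 to 1.66) without and 1.24 (95% interval 1.14 to 1.34) with P4, and that of *Ly6c1* was 1.30 (95% interval 1.18 to 1.43) without and 1.37 (95% interval 1.24 to 1.51) with P4. *Ly6a* was 1.08 and 1.11 in the same order, the latter 0.779 with the Scrublet calls. *Ly6d*, *Prom1* and *Cd24a* were lower with PBDEs. The ratio of *Ly6d* was 0.803 (95% interval 0.786 to 0.821) without and 0.835 (95% interval 0.815 to 0.855) with P4, and that of *Prom1* was 0.634 (95% interval 0.513 to 0.781) without and 0.772 (95% interval 0.620 to 0.956) with P4. In fibroblast-like cells the ratios were 1.14 and 1.26 for *Ly6e* and 1.03 and 1.39 for *Ly6c1*. *Ly6e*, *Ly6c1* and *Ly6a* were also the genes lower in luminal-like than in fibroblast-like cells. The fibroblast gene *Pi16* was 132.5 (OVX_E2), 153.6 (OVX_E2_PBDE), 70.5 (OVX_E2_P4) and 109.8 (OVX_E2_P4_PBDE) in L-Hor-like cells. The part of fibroblast RNA in the ratios of *Ly6e*, *Ly6c1* and *Ly6a* was not tested. The median log2 ratio of all genes was -0.15 without and -0.12 with P4.

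**Figure D5:**
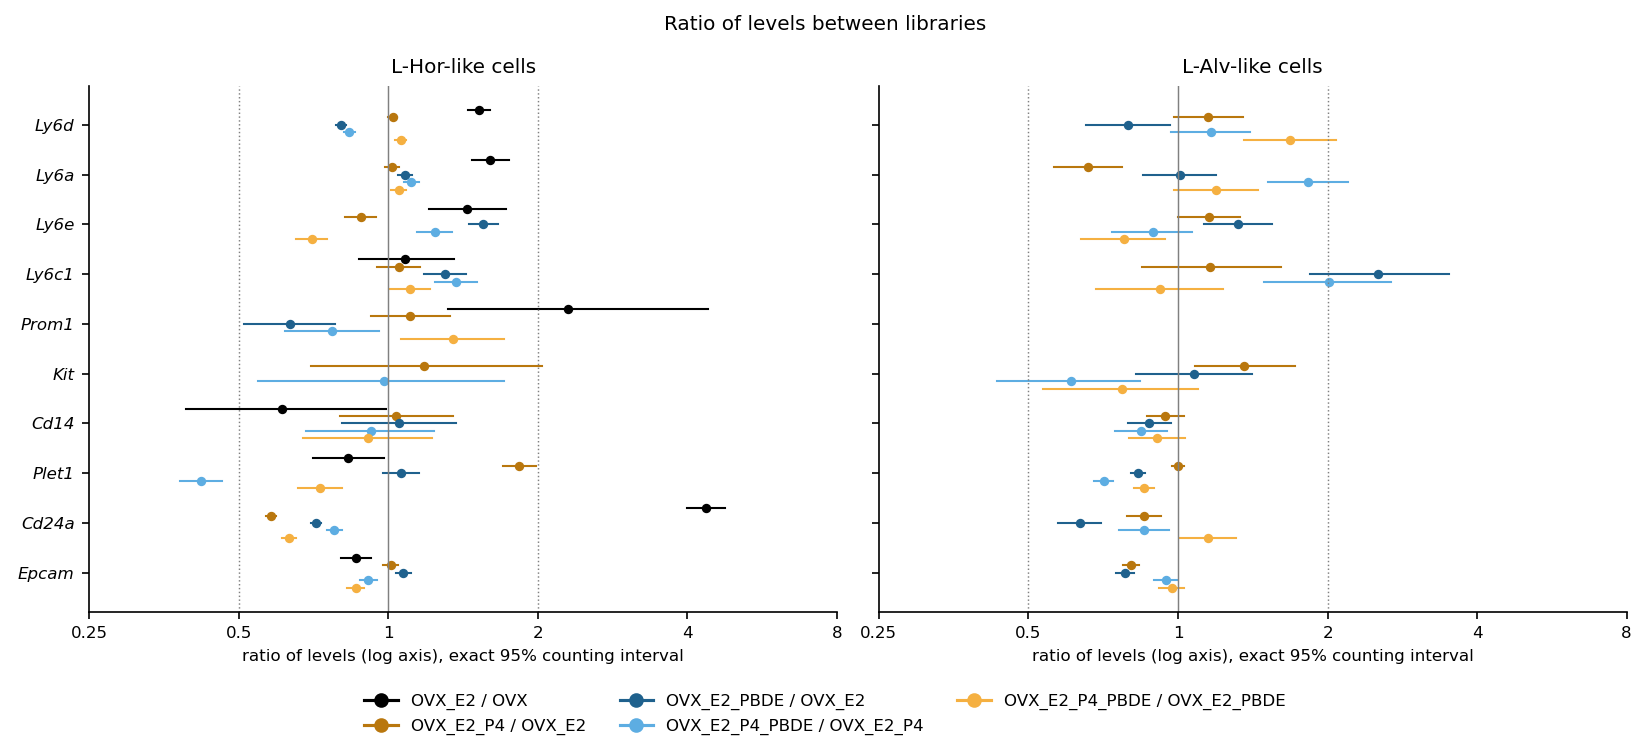
Ratio of the level of each gene between libraries (log axis) in cells of the L-Hor-like and of the L-Alv-like type, with exact 95% counting intervals as lines, a colour per comparison, and dotted lines at 0.5 and 2. Genes under 50 UMIs over the pair of libraries are left out, and *Cd24a* in OVX_E2 against OVX is the farthest point from 1.

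In L-Alv-like cells, 0 of 9 genes were past 2-fold for P4 without PBDEs, where 2.09% of all genes were, and 0 of 9 with PBDEs, where 2.51% were. For PBDEs, *Ly6c1* was the 1 gene of 9 past 2-fold in each comparison, where 1.43% of all genes were without P4 and 5.13% with P4. Its level was 25.3 (OVX_E2), 64.0 (OVX_E2_PBDE), 29.3 (OVX_E2_P4) and 59.0 (OVX_E2_P4_PBDE), from 51, 185, 183 and 64 UMIs, with ratios of 2.53 (95% interval 1.84 to 3.52) and 2.01 (95% interval 1.49 to 2.69). The 6 fibroblast markers, all detected in each library, summed to 1045 (OVX_E2), 1019 (OVX_E2_PBDE), 743 (OVX_E2_P4) and 1005 (OVX_E2_P4_PBDE) CPM in the same cells, and *Ly6c1* in fibroblast-like cells was 1433 to 1992. *Pi16*, high in the fibroblast-like clusters with high *Ly6c1*, was higher with PBDEs in both comparisons. In the L-Alv-like cells it was 90.3 (OVX_E2), 139.4 (OVX_E2_PBDE), 60.4 (OVX_E2_P4) and 114.3 (OVX_E2_P4_PBDE). The part of fibroblast RNA in the *Ly6c1* ratios was not tested. With Scrublet calls in place of the mixed clusters the ratio was 3.89 without and 1.78 with P4, and with the fibroblast-like level subtracted no ratio could be given.

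None of the alveolar markers was past 2-fold between these libraries. *Plet1* was 1.00 (95% interval 0.973 to 1.03) for P4 without and 0.854 (95% interval 0.816 to 0.894) with PBDEs, and 0.830 (95% interval 0.803 to 0.858) for PBDEs without and 0.708 (95% interval 0.679 to 0.738) with P4. *Cd14* had ratios from 0.842 to 0.943 in the 4 comparisons. For P4, *Kit* was 1.36 (95% interval 1.08 to 1.72) without and 0.772 (95% interval 0.534 to 1.09) with PBDEs. For PBDEs, it was 1.07 (95% interval 0.823 to 1.41) without and 0.610 (95% interval 0.433 to 0.840) with P4. *Ly6a*, low in this lineage, was 0.657 (95% interval 0.562 to 0.771) for P4 without and 1.19 with PBDEs, where the counting interval held 1, and the former was 1.07 with the Scrublet calls. For PBDEs it was 1.01 (95% interval 0.851 to 1.19) without and 1.83 (95% interval 1.51 to 2.19) with P4. *Ly6a* was at 2001 or more in fibroblast-like cells. Both *Ly6a* and the fibroblast gene *Pi16* (60.4) were lowest in the L-Alv-like cells of OVX_E2_P4. *Ly6a* was highest in OVX_E2_P4_PBDE and *Pi16* in OVX_E2_PBDE. The part of fibroblast RNA in the *Ly6a* ratios was not tested.

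Other surface markers of mammary fractions were counted in the same contrasts. Of 18 listed, 16 were tested, and 2 were higher and 7 lower in L-Hor-like than in L-Alv-like cells, where 27.4% and 27.0% of all genes were. The largest folds were 2.59 for *Alcam* and 0.71 for *Cd9*, and -5.79 for *Tspan8*, a tetraspanin, and -3.94 for *Cd44*, the hyaluronan receptor. In luminal-like cells 6 were higher and 3 lower than in basal-like cells (all genes 23.7% and 24.3%), led by *Alcam* (2.14) and *Ceacam1* (1.89), and by the integrins *Itga6* (-1.60) and *Itgb1* (-1.33). Against fibroblast-like cells 8 were higher and 7 lower (all genes 35.8% and 35.7%), led by *Itga6* (4.16) and *Cdh1* (3.90), and by *Procr* (-4.65) and *Thy1* (-4.26). Against endothelial-like cells 7 were higher and 7 lower (all genes 25.3% and 26.5%), led by *Cdh1* (4.25) and *Alcam* (3.19), and by *Procr* (-2.56) and *Itgb1* (-1.70).

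Of 25 other Ly6/uPAR genes in the files, 8 were expressed enough to be tested, and the shares of all genes called are those just given for each contrast. In L-Hor-like cells 3 were higher and 4 lower than in L-Alv-like cells, led by *Ly6k* (2.59) and *Lynx1* (1.30), and by the complement inhibitors *Cd59a* (-4.57) and *Cd59b* (-3.41). Against basal-like cells 3 were higher and 3 lower in luminal-like cells, led by *Ly6k* (3.15) and *Lypd3* (1.18), and by *Cd59a* (-2.62) and *Cd59b* (-1.14). Against fibroblast-like cells 3 were higher and 4 lower, led by *Lypd3* (4.10) and *Ly6k* (2.67), and by *Ly6c2* (-2.15) and *Lynx1* (-2.10). Against endothelial-like cells 2 were higher and 4 lower, led by *Lypd3* (4.65) and *Plaur* (1.12), and by *Gpihbp1*, the capillary anchor of lipoprotein lipase, and *Cd59a* (-1.71). *Gpihbp1* had 120 to 479 UMIs in endothelial-like cells and 0 to 7 in L-Hor-like and 0 to 1 in L-Alv-like cells per library, so no fold is given.

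The genes whose levels ran most like each marker were found by Pearson's r of log2(CPM + 10) over the 34 sums of library and cell type, among 5327 genes. Sums of a library share its depth and free RNA, and r is a description. Hematopoietic-like and pericyte-like sums entered, the latter of 2 to 11 cells per library. The means of *Prom1* (11.5 CPM) and *Kit* (11.7) over the sums were under the minimum of 20 set for the genes compared. *Cd14* had a mean of 803 in hematopoietic-like and 323 in L-Alv-like sums. The 3 most similar genes were *Tmem56* (0.95), *Wfdc2* (0.94) and *Tmprss2* (0.93) for *Ly6d*, *Fuca1* (0.84), *Gabarap* (0.83) and *Smim14* (0.83) for *Ly6a* and *Id3* (0.96), *Ramp2* (0.93) and *Ebf1* (0.93) for *Ly6c1*. They were *Col8a1* (0.81), *Ssu72* (0.81) and *Cyb561* (0.78) for *Prom1* and *Vamp8* (0.85), *Ndufa4* (0.83) and *Clca3a2* (0.81) for *Cd24a*. For the alveolar markers they were *Car2* (0.86), *Csn3* (0.85) and *Wfdc18* (0.83) for *Kit*, *Ctsc* (0.88), *Csf2ra* (0.88) and *Slfn2* (0.87) for *Cd14* and *Aldoc* (0.91), *Csn3* (0.89) and *Gm10073* (0.88) for *Plet1*, with the milk protein gene *Csn3* near *Kit* and *Plet1*. For *Epcam* they were *Krt18* (0.95), *Syne4* (0.95) and *Mapk13* (0.94), led by the luminal keratin *Krt18*. *Csn3*, *Wfdc18* and *Krt18* were among the markers that named the clusters.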

How the data were processed

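The authors took the fourth gland without its lymph node, dissociated it with collagenase and DNase, removed red blood cells and, with microbeads, dead cells, made 10x Genomics 3′ libraries, and processed the reads with Cell Ranger 2.0.0 against mm10. They deposited raw UMI counts per gene and called barcode, without normalization. Reads from BALB/cj mice were placed on the C57BL/6J reference. The deposited matrices held 19982067 to 42012988 UMIs per library, and intervals and shares cover counting error only.

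Barcodes with under 500 genes, under 1000 UMIs or over 10% mitochondrial UMIs were removed. Each library was clustered alone with Seurat 5.3.0 in R 4.3.3 (2000 variable genes, 10 components, 20 neighbours, resolution 0.3 for OVX and 0.5 for the others). The 10 genes and the other listed surface and Ly6 genes were kept out of the variable genes. Clusters were named by a mean marker score of at least 0.25 (0.5 for luminal), and clusters with a score of at least 0.25 for both luminal lineages were set aside as mixed luminal, the treatment of putative doublets. Barcodes of the vascular cluster were split into endothelial-like and pericyte-like cells by which marker set had more UMIs, those with under 5 such UMIs going to the next best name where its score was at least 0.25, and the limits of this naming were chosen after the clusters had been seen.

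Counts were summed per library and cell type. Cell type contrasts used edgeR 4.0.16 (filterByExpr, TMM, quasi-likelihood test, library and cell type as terms, Benjamini-Hochberg adjustment over 11229 genes), and the SE is the log2 fold divided by the square root of the F statistic. Each sum is 1 cell type of 1 library. With the library as a term, p-values measure how cell type differences varied between libraries of different treatment. The estimate of spread was shared by all 24 sums of the 5 types. Ratios between libraries had exact 95% intervals and were counted past 2-fold with at least 50 UMIs over both. Cells were thinned to 3000 UMIs for shares. Genes were named as the 10 markers, the 3 genes most like each (those of *Ly6e* are not reported here), and the 2 largest folds per direction of each list, and *Pi16*, *Spon1* and *Lyz2* after their values were seen. The 10 genes, the lists and the tests were chosen with earlier results of these data known. Alternatives were RLE factors, no filter, DESeq2 1.42.0, no library term, leaving out each library, a 5% mitochondrial threshold, Scrublet calls (the top 20% of scores) in place of multiplet clusters, resolution 1.0, subtraction of the fibroblast-like level, a minimum of 10 UMIs, all luminal cells together and, added after seeing the data, division by the median ratio. The scripts were tested on simulated data.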

Additional observations from a re-analysis of the deposited data

Results flagged for a closer look

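Within the 2 luminal lineages, in 3 cases a gene had opposite directions for the same treatment with and without the other treatment, with both counting intervals leaving out 1. For OVX_E2 over OVX alone, in 3 cases it had opposite directions in L-Hor-like and basal-like cells. Other types and the other comparisons with basal-like cells were not counted here and hold further cases, among them *Ly6a* in basal-like cells for PBDEs, at 0.528 without and 3.10 with P4, where the OVX_E2_P4_PBDE cells stood apart. With 1 library per group none of these differences was tested. How often all genes met the same rules was not counted, so the numbers of cases cannot be read as particular to these genes.

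*Plet1* in L-Hor-like cells had a ratio of 1.83 for OVX_E2_P4 over OVX_E2 and 0.728 for OVX_E2_P4_PBDE over OVX_E2_PBDE. *Epcam* in L-Hor-like cells had 1.07 for OVX_E2_PBDE over OVX_E2 and 0.912 for OVX_E2_P4_PBDE over OVX_E2_P4, each within 10% of 1. *Cd24a* in L-Alv-like cells had 0.852 for OVX_E2_P4 over OVX_E2 and 1.15 for OVX_E2_P4_PBDE over OVX_E2_PBDE. With Scrublet calls in place of the mixed clusters, these were 0.453 and 1.46 for *Plet1*, and *Epcam* without P4 was 0.883 and *Cd24a* with PBDEs was below 1.

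For OVX_E2 over OVX, *Cd24a* had a ratio of 4.36 in L-Hor-like and 0.562 in basal-like cells. *Ly6e* had 1.44 in L-Hor-like and 0.693 in basal-like cells. *Plet1* had 0.829 in L-Hor-like and 3.85 in basal-like cells, the latter from 17 UMIs in OVX and 153 in OVX_E2. In L-Hor-like cells it was 3.60 with the Scrublet calls. At the main settings its log2 ratio there was -0.27, near the median of -0.24 over all genes. In basal-like cells the luminal keratin *Krt18* was 417 CPM in OVX and 646 in OVX_E2. The part of luminal RNA in the basal-like ratio of *Plet1* was not tested.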

How the results depend on the processing

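No paired analysis was possible because the labels give 1 library per group and no shared replicate numbers, while the library was already a term in the cell type contrasts. Of the log2 folds of single genes under 12 alternatives, 464 kept their direction and call, 8 lost and 6 gained a call, and 2 changed sign without a call. *Ly6a* against endothelial-like cells was 0.030 with Scrublet calls in place of the multiplet clusters (adjusted p = 0.94, edgeR), and *Prom1* -0.30 with the 5% mitochondrial threshold (adjusted p = 0.65). Leaving out each library in turn gave 6 genes higher and 3 to 4 lower in L-Hor-like than in L-Alv-like cells, 7 to 10 higher and 0 lower against basal-like, 7 higher and 3 lower against fibroblast-like, and 5 to 6 higher and 2 lower against endothelial-like cells. Of the ratios between libraries under other settings, 385 moved by less than their counting interval, 128 moved by more, and 1 that was past 2-fold reversed, *Plet1* in L-Hor-like cells for PBDEs with P4, at 1.51 with the Scrublet calls. Whatever their size, 31 of 83 ratios changed direction with the Scrublet calls and 8 of 47 with all luminal cells together. With the fibroblast-like level subtracted 5 of 52 did, and with the 5% mitochondrial threshold 4 of 83. The subtraction left no ratio for *Ly6a*, *Ly6c1* or *Ly6e*, because a level at or below 0 gives none. It therefore says nothing about these genes. When divided by the median ratio 3 of 83 did, and at a resolution of 1 0 of 83. A minimum of 10 UMIs only lets in more genes. Its 83 ratios, counted among the 385, were the same by construction and could not move.

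The Scrublet calls removed high scores and kept the mixed luminal clusters, each given whole to the lineage with its higher marker score. The cluster of OVX went to L-Alv-like cells, and those of OVX_E2 and OVX_E2_P4_PBDE went to L-Hor-like cells. OVX_E2_PBDE and OVX_E2_P4 had a cluster of each kind. Mixed cells thus entered the compared sums unequally, and their part in the changes was not tested. The Scrublet calls changed the counts past 2-fold most. In L-Hor-like cells they gave 4 genes for E2, 2 for P4, 1 for PBDEs, 2 for PBDEs with P4 and 1 for P4 with PBDEs, and in L-Alv-like cells 4 for PBDEs, 0 for PBDEs with P4 and 3 for P4 with PBDEs. A minimum of 10 UMIs gave 1 gene for PBDEs and 1 for P4 with PBDEs in L-Hor-like cells. Subtracting the fibroblast-like level gave 1 for P4 with PBDEs in L-Hor-like cells, and 0 for PBDEs with and without P4 in L-Alv-like cells, where *Ly6c1* then had no value. All luminal cells together gave 0 for PBDEs with P4, with *Plet1* at 0.512. Division by the median ratio of all genes, chosen after seeing the data, changed none of the 9 counts. The shares of all genes past 2-fold were counted at the main settings only. The counts under other settings therefore cannot be read as particular to the 10 genes. Endothelial-like sums held 0 to 9 UMIs of *Kit* and *Prom1* per library.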

Other observations

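Outside the 5 types compared above, *Cd14* was highest in hematopoietic-like cells, at 424.5 to 1207 CPM per library. Of their 8 clusters, it reached 3579 in a cluster of 20 cells in OVX and 3272 in another of 26 cells in OVX_E2_P4, with *Lyz2*, a lysozyme gene of myeloid cells, at 949.7 and 2171. It was 4.49 in a cluster of 76 cells in OVX with *Lyz2* at 13.5, where *Ly6c1* was 1010.0 and *Ly6a* 947. The fibroblast gene *Pi16* was 925 in that cluster, against 201 and 299.9 in the other hematopoietic-like clusters of OVX. The part of fibroblast RNA in these Ly6 levels was not tested. The cluster with the highest *Lyz2*, 11100 in 67 cells of OVX, had *Cd14* at 1104, so the levels of these genes did not run in parallel. Hematopoietic-like cells entered no contrast.

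Cycling epithelial cells, found in the 4 libraries with E2 and not named in OVX, held the markers of both lineages. *Ly6d* was 435 to 728, *Plet1* 758 to 1488, *Kit* 19.2 to 47.4 and *Epcam* 1045 to 1368 CPM. In the mixed luminal cells of OVX, which had no L-Alv-like cluster at the main settings, *Plet1* was 1691, *Cd14* 228, *Kit* 38.0 and *Ly6d* 1008.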
